A study of Arabidopsis thaliana with 4 samples.

Results

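The open chromatin of Est-1, a natural accession of Arabidopsis thaliana, was set against that of the accessions Bur-0, Bay-0 and Tsu-1. Described here are 2 sets of regions, those called in Est-1 alone, and those called in all of the other 3 accessions but not in Est-1. Overlapping or touching peaks of the 4 deposited lists on the 5 nuclear chromosomes were merged into 36153 regions. Of these, 2184 held a peak in Est-1 and in no other list (Est-1-only regions), 6.04% of all regions, and 761 held a peak in each of the other 3 lists but none in Est-1 (missing regions), 2.10% of all regions. A further 19642 regions held a peak in all 4 lists and serve below as the comparison. The members were chosen by the presence or absence of the authors' peak calls in these same lists, so the counts are a description, and no test is attached to them.

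Each accession was represented by 1 DNase I-seq library, so no difference between accessions could be set against a spread of replicates, and p-values are not given. The libraries came from whole seedlings 7 days old, grown in days of 16 h light (22°C) and nights of 8 h (20°C). The labels give all 4 samples, Est-1, Bur-0, Bay-0 and Tsu-1, the INTACT line UBQ10:NTF::ACT2:birA, in which nuclei carry a biotin tag for capture, and no other treatment. They also give Col-0 as the genetic background of every sample although the titles name the accessions. Tsu-1 is written Tsu-0 in the text of the series. The accession in each sample's source name was followed.

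DNase I cuts DNA most readily where it is free of nucleosomes, so small fragments released by neighbouring cuts pile up over promoters, enhancers and other sites held open by bound proteins. In a compact plant genome such as that of Arabidopsis, most of these sites lie just outside genes. Accessions differ in DNA sequence as well as in chromatin, and reads of all of them were placed on the TAIR10 reference, which is that of Col-0. A missing peak in an accession can therefore come from reads that could not be placed as well as from closed chromatin, and the peak lists cannot tell these apart.

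The Est-1 list was the longest and held exactly 30000 peaks with those of the organelles. Whether its length had been limited is not stated, and how such a limit would bear on the missing regions was not tested. It had 29699 nuclear peaks, against 25298 in Bur-0, 28821 in Bay-0 and 27388 in Tsu-1, and 99.9% of peaks in each list were 150 bp wide. Sequencing depth was unknown, and no scaling is stated for the authors' signal value of each peak. Signal was therefore used as a rank within its own list, as a percentile with 100 at the strongest peak. The genes whose promoters drive the INTACT transgenes had strong peaks at their ends in every list: the best rank at UBQ10, a polyubiquitin gene, was 99.7 in Est-1, 99.5 in Bur-0, 100 in Bay-0 and 99.9 in Tsu-1, and at ACT2, an actin gene, it was 96.7 in Est-1, 98.3 in Bur-0, 97.4 in Bay-0 and 96.2 in Tsu-1. Ranges in parentheses after a share are its 95% interval by the exact Clopper-Pearson method, which covers nothing but counting error.

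Most Est-1-only regions were weak peaks that stood alone, and the smaller part beside a call of another list had higher ranks. The median Est-1 rank was 10.8 over the 2184 Est-1-only regions, against 63.4 over the regions in all 4 lists. A peak of another list lay within 300 bp of 696 of them, 31.9% (29.9 to 33.9). The 696 had a median Est-1 rank of 34.8, and the other 1488 one of 6.99. Of the 225 Est-1-only regions with a rank over 50, 189 had such a neighbour and 36 did not. The neighbour came from 1 other list in 145 cases, from 2 lists in 115 and from all of Bur-0, Bay-0 and Tsu-1 in 436. At the other end, 818 regions, 37.5% (35.4 to 39.5), had no peak of another list within 1000 bp, and 156, 7.14% (6.10 to 8.30), had none within 5000 bp.

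Missing regions had higher ranks in the lists that held them than Est-1-only regions had in Est-1. A missing region needs a call in each of 3 lists and an Est-1-only region in Est-1 alone, so nothing is read from this difference. Missing regions made up 3.73% of the 20403 regions held by Bur-0, Bay-0 and Tsu-1, while Est-1-only regions were 7.38% of the 29603 regions with an Est-1 peak. The median rank of missing regions was 37.1 in Bur-0, 36.4 in Bay-0 and 34.7 in Tsu-1. Taking for each region the lowest of its 3 ranks, the median was 24.2 over missing regions and 49.0 over the regions in all 4 lists. The weakest of the 3 calls was that of Bur-0 in 258 regions, of Bay-0 in 232 and of Tsu-1 in 271, so no single list supplied most of the weak calls. An Est-1 peak lay within 300 bp of 304 missing regions, 39.9% (36.4 to 43.5). The near share of Est-1-only regions counts a call of any of the other 3 lists, and this share counts Est-1 peaks alone. Their order is therefore not read. By single list, 23.8% of Est-1-only regions had a Bur-0 peak within 300 bp, 26.5% a Bay-0 peak and 26.8% a Tsu-1 peak. With all lists at the length of the shortest, the near shares were 44.8% of 1254 Est-1-only and 27.1% of 998 missing regions. The 304 had a median lowest rank of 36.2, and the 457 with no Est-1 peak that near had one of 14.3. No Est-1 peak lay within 1000 bp of 182 missing regions, 23.9% (20.9 to 27.1), or within 5000 bp of 47.

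**Figure D1:**
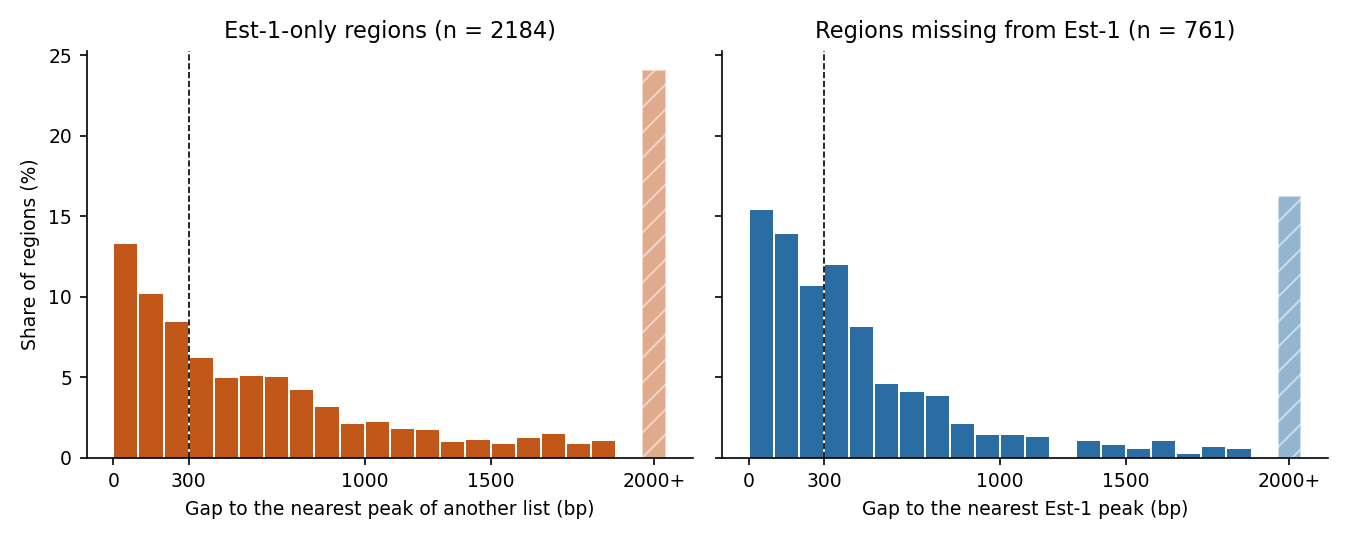
Distance in bp from each Est-1-only region to the nearest peak of another list (left) and from each missing region to the nearest Est-1 peak (right), as the share of regions in bins of 100 bp; the dashed line marks 300 bp and the hatched bar holds all larger distances. The bins below 300 bp hold 31.9% of Est-1-only and 39.9% of missing regions.

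**Figure D2:**
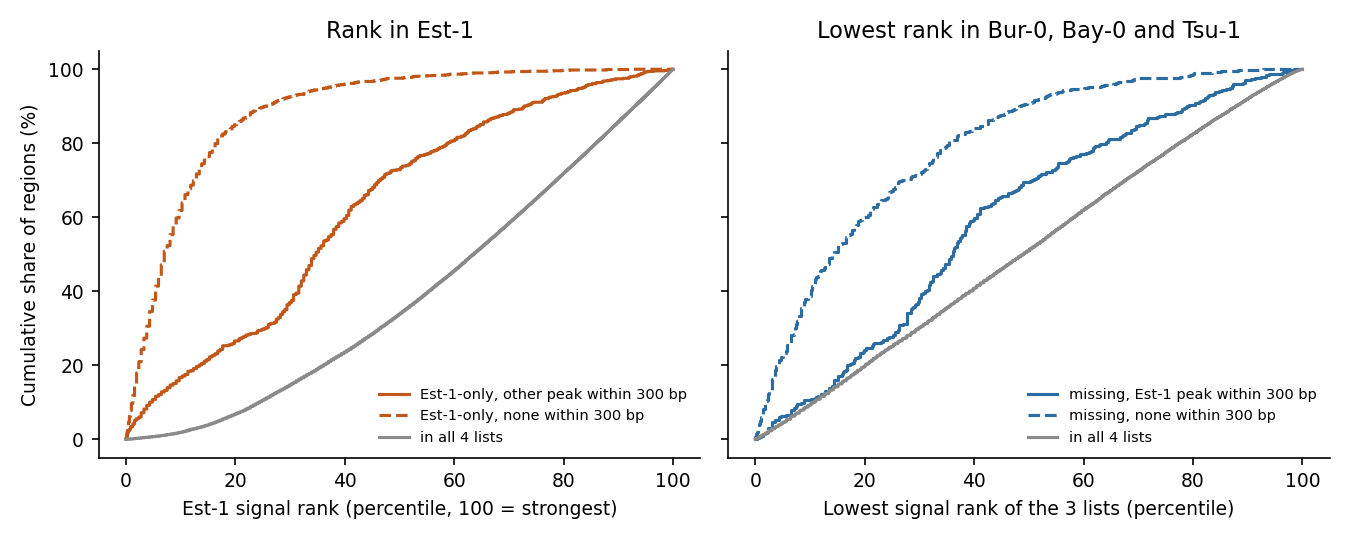
Cumulative share of regions by signal rank, for Est-1-only regions in the Est-1 list (left) and for missing regions by the lowest of their ranks in Bur-0, Bay-0 and Tsu-1 (right), split by whether a peak lay within 300 bp (solid) or not (dashed), with regions in all 4 lists in grey. The dashed curves rise first: median ranks without a near peak were 6.99 for Est-1-only and 14.3 for missing regions.

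The strongest Est-1-only regions with no neighbouring call stood at genes mostly without a symbol. The highest was at an end of AT4G03292 (chromosome 4, 1444461 to 1444610), with an Est-1 signal of 450 and a rank of 92.6, and the nearest peak of another list was 1750 bp away. AT4G03290 shares this region in its window. At AT4G01350 (chromosome 4, 559521 to 559670) the Est-1 signal was 384, rank 87.9, and the nearest other call was 4690 bp away. At the end of AT1G63880 (chromosome 1, 23716201 to 23716350) it was 383, rank 87.8, with the nearest other call 9410 bp away. A further Est-1-only region stood 190 bp away at DAL1, also called SP1, which encodes a ubiquitin ligase of the chloroplast envelope (chromosome 1, 23716541 to 23716690), with a signal of 179 and a rank of 52.6.

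The other members of this group stood near ABCG8, BOR1 and LIG6 and near genes without a symbol. A region 185 bp from ABCG8, a gene of the ABC transporter family (chromosome 5, 21421901 to 21422050), had an Est-1 signal of 288 and a rank of 77.0, and a further, weaker one near the gene had a rank of 22.7. A region 872 bp from BOR1, a boron exporter (chromosome 2, 19362201 to 19362350), had a signal of 268 and a rank of 73.7. Its nearest other call was 310 bp away, just outside the 300 bp limit, and a stronger Est-1-only region at BOR1 (chromosome 2, 19362421 to 19362570, rank 87.0) had one at 170 bp. At LIG6, a DNA ligase gene, the signal was 237 and the rank 67.8. The remaining members of the top 15 stood at AT3G50540 (rank 81.2), AT5G16200 (79.9), AT5G18340 (79.6), AT3G45530 (78.2 and 70.9), AT4G22630 (70.5), AT1G06630 (68.0), AT4G01340 (67.1) and AT1G52710 (65.8). At BOR1 and AT1G52710 the nearest other call was 310 and 350 bp away, and at the others it was at least 590 bp away.

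The Est-1-only regions with the highest signal of all had a call of another list close by. The strongest of the 2184 lay nearest to AT2G46360 and in the window of SPA1, a repressor of light signalling that works with COP1 (chromosome 2, 19027941 to 19028090), with an Est-1 signal of 841 and a rank of 99.8, 70 bp from another list's peak. Next came a region 146 bp from UBQ10 (chromosome 4, 2717681 to 2717830), signal 818 and rank 99.7, also at 70 bp. UBQ10 is named in the label of the INTACT line, and the part of the transgene in this peak was not tested. A distal region nearest to AP2, a regulator of flower development (chromosome 4, 17397901 to 17398050), had a signal of 645 and a rank of 98.5. At PYL4, an abscisic acid receptor (chromosome 2, 16051581 to 16051730), the signal was 540, the rank 96.4 and the gap 30 bp. BEH3, a relative of the brassinosteroid factors BES1 and BZR1, had 508 and 95.4, and AT1G72460 had 495 and 94.8. The windows of UBQ10, SPA1 and PYL4 held peaks in all 4 lists, so calls near these genes were not confined to Est-1. At UBQ10 the part of the transgene in the calls of the other lists was not tested either.

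The strongest missing region with no Est-1 peak within 300 bp stood at an end of SCPL13, a serine carboxypeptidase-like gene (chromosome 2, 9778721 to 9778890). It had no Est-1 peak within 2930 bp, against signals of 341 in Bur-0, 524 in Bay-0 and 426 in Tsu-1, at ranks of 92.8, 97.7 and 98.5. A weaker missing region lay at an end of its neighbour SCPL11 (chromosome 2, 9778121 to 9778270), with ranks of 60.4 in Bur-0, 67.4 in Bay-0 and 41.8 in Tsu-1. A further one lay 538 bp from SCPL11 (chromosome 2, 9774001 to 9774210), with an Est-1 peak 430 bp away and ranks of 51.6 in Bur-0, 74.2 in Bay-0 and 51.6 in Tsu-1. The missing regions of these neighbours therefore differed in how far the next Est-1 peak lay.

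Genes with a symbol and genes without one shared the rest of the 15 strongest. At GAD2, a glutamate decarboxylase that makes the signalling molecule GABA, the region lay inside the gene (chromosome 1, 24554401 to 24554550), with no Est-1 peak within 410 bp and signals of 225 in Bur-0, 276 in Bay-0 and 230 in Tsu-1. A distal region nearest to NHX1, a vacuolar sodium-proton antiporter (chromosome 5, 9561701 to 9561870), had no Est-1 peak within 1890 bp and signals of 300, 264 and 227 in those lists. A region 475 bp from AGL77, a MADS-box gene (chromosome 5, 15514781 to 15514930), had none within 3990 bp and signals of 245, 372 and 263. Near TPR7, which encodes a tetratricopeptide repeat protein, the lowest rank was 80.0, at SAUR9, a small auxin-up RNA gene, it was 69.2, and at Y14, a core protein of the exon junction complex, it was 67.7. Genes without a symbol held others of the top 15: AT5G06790 (lowest rank 88.3), AT2G15960 (85.1), AT1G65985 (84.8), AT2G02620 (79.4), AT3G04020 (77.7), AT2G34123 (70.2) and AT4G08960 (68.9).

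Where an Est-1 peak lay near, the strongest missing regions were among the strongest peaks of the lists that held them. At AT2G41890 (chromosome 2, 17483441 to 17483670) the Est-1 peak was 30 bp away and the signals were 596 in Bur-0, 565 in Bay-0 and 434 in Tsu-1, with a lowest rank of 98.5. At AT5G25280 the gap was 110 bp and the lowest rank 97.9, and at AT1G75530 they were 70 bp and 96.5. AT1G03220, AT5G11000 and CIP1, which encodes a protein that binds the light-signalling repressor COP1, completed the 6 strongest, with lowest ranks of 96.2, 93.9 and 93.3 and gaps of 50, 50 and 10 bp.

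In 86 places an Est-1-only region lay within 300 bp of a missing region, which took in 3.94% of the Est-1-only and 11.3% of the missing regions. The median gap in such pairs was 60 bp, with a range of 10 to 290 bp. At CIP1 the Est-1 peak (chromosome 5, 16725501 to 16725650, rank 94.7) ended 10 bp before the missing region (16725661 to 16725810, lowest rank 93.3). At MYB30, a factor of the hypersensitive cell death response, the Est-1 rank was 84.0 and the lowest rank of the missing region 10 bp away was 78.0. At PSBR, a subunit of photosystem II, the values were 72.8 and 81.8, also at 10 bp. LBD37, a repressor of nitrogen-responsive genes, had 79.0 and 82.2 at 70 bp, and the pair nearest to BXL1, a xylosidase of the cell wall, had 78.8 and 80.4 at 10 bp. Over the 86 pairs, the Est-1 rank and the lowest rank in the other lists lay within 10 points of each other in 51 and further apart in 35. Among the widest differences, ckl7, a casein kinase gene, had 87.2 on the Est-1 side and 2.96 on the other, NIT1, a nitrilase gene, had 46.2 and 2.31, and the pair nearest to AT3G47250 had 5.94 and 87.3.

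What stood near a member could be read from its neighbour. Of the 304 missing regions with an Est-1 peak within 300 bp, that peak belonged to a region of all 4 lists in 123, to an Est-1-only region in 86 and to another kind of region in 95, and its median rank was 60.3. Of the 696 Est-1-only regions with a call of another list that near, the call belonged to a region of all 4 lists in 367, to a missing region in 83 and to another kind in 246, and its median rank was 54.0. Another Est-1 peak lay within 300 bp of 21.0% (19.3 to 22.7) of the Est-1-only regions and of 20.8% (20.2 to 21.4) of the regions in all 4 lists, which do not differ beyond their intervals.

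The rule has a sharp edge, since peaks stood on a grid of 10 bp and a single step separated a shared region from a member. At the smallest gap, 10 bp, stood 52 Est-1-only regions with a median Est-1 rank of 29.2 and 23 missing regions with a median lowest rank of 64.7. At the smallest overlap, also 10 bp, stood 46 regions of Est-1 and another list, with a median Est-1 rank of 31.3.

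Some loci gathered several members, and the strongest case of missing regions was at the genes for RESPONSE TO LOW SULFUR, LSU2 and LSU4, members of a family whose transcripts accumulate when sulfur is short. No Est-1 peak lay in a stretch of 21570 bp (chromosome 5, 8437091 to 8458660), while the other lists had 9 regions there, 5 of them in all 3 of those lists. The stretch held 4 genes, LSU4, LSU2, EMB2820, which encodes a tRNA adenosine deaminase, and AT5G24680. The region at the LSU2 end (8443861 to 8444110) had signals of 197 in Bur-0, 196 in Bay-0 and 137 in Tsu-1, at ranks of 74.1, 63.8 and 63.3. The next 2 lay 699 and 939 bp from LSU2, with lowest ranks of 53.1 and 54.7. The region inside EMB2820 (8447961 to 8448110) had signals of 151, 258 and 85, and the one 150 bp from LSU4 (8440261 to 8440450) had 87, 99 and 44, where the Tsu-1 call was near the bottom of its list at a rank of 3.03. None of the 5 had an Est-1 peak within 3000 bp. LSU1, a relative on chromosome 3, also had a missing region, 360 bp away (18376301 to 18376450), with signals of 102 in Bur-0, 188 in Bay-0 and 104 in Tsu-1 and an Est-1 peak at 350 bp.

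A gene of sulfate assimilation was also found beside missing regions. APR1 encodes an APS reductase, a controlling enzyme of the pathway that turns sulfate into sulfide. A region 1527 bp from it (chromosome 4, 2323141 to 2323350) had no Est-1 peak within 1490 bp and signals of 238 in Bur-0, 295 in Bay-0 and 188 in Tsu-1. A weaker one, 707 bp from the gene, had 116, 81 and 73. Both lay in a stretch of 34910 bp without an Est-1 peak. LSU1, LSU2, LSU4 and APR1 were on none of the gene lists and were singled out after their values were seen, and sulfur genes as a group were not counted.

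Other stretches of Est-1 without a peak held pairs of missing regions. At AT1G65985 a stretch of 23090 bp held 7 regions of the other lists and 5 genes. Its 2 missing regions (chromosome 1, 24568901 to 24569170 and 24569661 to 24569810) had signals of 152 and 299 in Bur-0, 290 and 306 in Bay-0 and 247 and 245 in Tsu-1. At AT2G02620 and AT2G02630 a stretch of 37030 bp held 13 regions of the other lists and 8 genes, and its stronger missing region (chromosome 2, 720461 to 720810) had signals of 221, 308 and 266 in Bur-0, Bay-0 and Tsu-1. PIRL3, a leucine-rich repeat gene, and its neighbour AT1G12960 each had a missing region, with lowest ranks of 66.3 and 60.8, in a stretch of 13150 bp. GSTU26, a glutathione transferase gene, had 2 missing regions at gene ends, with lowest ranks of 56.2 and 6.47, while a few kilobases away an Est-1-only region of rank 47.6 stood at GSTU24 of the same family.

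Est-1-only regions gathered in a similar way at AT3G45530, where 3 of them were the only calls of any list in 72090 bp (chromosome 3, 16660371 to 16732460), a stretch with 18 genes. Their Est-1 signals were 296, 252 and 83, at ranks of 78.2, 70.9 and 12.9. At AT4G01340 and AT4G01350, 3 Est-1-only regions with signals of 234, 384 and 151 were the only calls in 11110 bp. AT4G22620, also named SAUR34, and AT4G22630 shared 3 regions with ranks of 10.2, 27.1 and 70.5. SUB1, a calcium-binding protein of light signalling, had 3 regions with ranks of 41.6, 35.2 and 17.7, and the last of them had a call of another list 290 bp away.

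The longest run of neighbouring Est-1-only regions had 4 members, at AT4G13530, AT4G13540 and AT4G13550 (chromosome 4, 7868761 to 7877830), with ranks between 1.24 and 23.7. In all there were 119 runs of 2, 14 runs of 3 and 1 run of 4 Est-1-only regions, and 23 runs of 2 and 1 run of 3 missing regions, the last at LSU2. Est-1-only regions were 6.04% of all regions and missing regions 2.10%, and runs can arise from these shares alone. How many would do so was not worked out, so no clustering is read from these counts. Several of the longer runs held weak calls. At IRT1, the main iron uptake transporter of the root, and its relative IRT2, the 3 regions had signals of 68, 68 and 78, with ranks no higher than 10.2. At CRK41 and AT4G00990 the signals were 110, 210 and 79. Between CRK30 and AT4G11521, in a cluster of cysteine-rich receptor-like kinases, the ranks ran from 0.982 to 33.0.

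**Figure D3:**
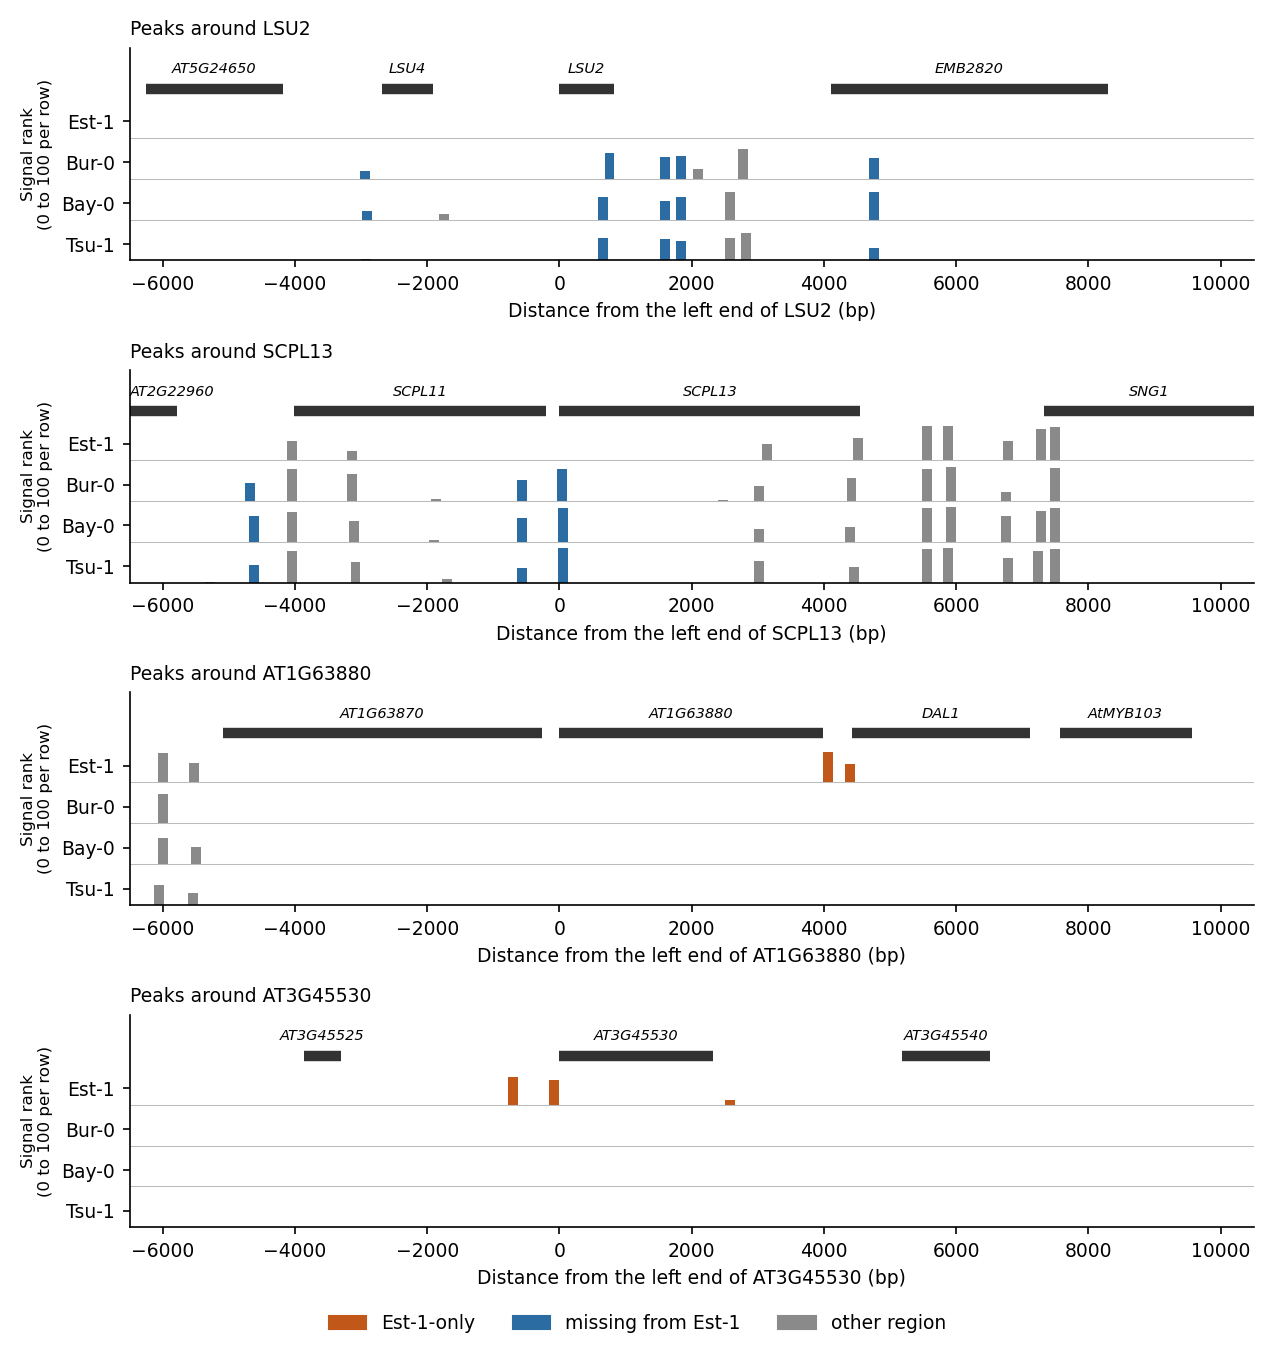
Peaks of Est-1, Bur-0, Bay-0 and Tsu-1 around LSU2, SCPL13, AT1G63880 and AT3G45530; the x axis gives the distance in bp from the left end of the named gene, bar height gives the signal rank within each list from 0 to 100, and black bars are protein-coding genes. The LSU2 panel shows no Est-1 peak, and the AT3G45530 panel shows Est-1 peaks alone, at ranks of 78.2, 70.9 and 12.9.

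Genes were then read by the calls near their ends. A gene window was taken from 1000 bp outside to 200 bp inside either end, since the gene table gives no strand, and a gene was called open in a list with a peak there. Among 27432 protein-coding genes, 2217 had an Est-1-only region in the window, 8.08% of all, and 722 had a missing region, 2.63% of all. Of the 2217, 55.6% were open in all 4 lists, and of the 722, 79.4% were, beside 53.7% of all protein-coding genes. Having a peak in the window is a condition of membership, so nothing is read from these shares. Both kinds stood in the window of 111 genes. Of the members, 1600 Est-1-only and 530 missing regions touched a gene window.

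Genes with a call on one side alone were fewer. Genes open in Est-1 and in no other list numbered 615, 2.24% of all, and their best Est-1 rank had a median of 7.52 and passed 50 in 21 genes. Genes open in each of the other 3 lists but not in Est-1 numbered 168, 0.612% of all, with a median lowest rank of 10.9 and 19 genes over 50. The order of these counts turned with list length: with all lists at the length of the shortest, 323 genes were open in Est-1 alone and 391 in the other 3 lists alone. The strongest of the genes open in Est-1 alone were AT4G03290 and AT4G03292 (best rank 92.6), AT4G01350 (87.9), AT1G63880 and DAL1 (87.8), TBL26, of a family that acetylates cell wall polysaccharides (84.2), AT3G50540 (81.2), AT5G18340 (79.6), AT3G45530 (78.2) and ABCG8 (77.0). TBL26 was the only one of these 10 whose region had a call of another list within 300 bp.

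The strongest of the genes open everywhere but in Est-1 were AT1G65985 (best ranks 89.9 in Bur-0, 84.8 in Bay-0 and 88.3 in Tsu-1), AGL77 (83.4, 91.1 and 90.1), AT2G34120 and AT2G34123 (79.8, 82.2 and 70.2), AT4G08960 (68.9, 80.1 and 81.1) and PIRL3 (68.0, 82.8 and 74.1). AT1G36623 followed, although an Est-1 peak lay 50 bp from its missing region, outside its window. RWA3, a gene for acetylation of cell wall polymers, reached a lowest rank of 66.9 with no missing region, because the peaks of the 3 lists in its window did not all fall in 1 region. LSU2 and AT1G12960, with lowest ranks of 63.3 and 60.8, completed the 10. Further down stood HPL1, a hydroperoxide lyase that makes leaf volatiles, at 52.6.

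Windows with 3 or more members were few. Those with Est-1-only regions alone belonged to AT1G58220, AT3G45530 and SUB1, which were open in no other list, and to AT3G19274, AT4G17243 and AT4G17245, which were open in all 4. CRK3, a calcium-dependent protein kinase relative, and CIP1 each had 2 Est-1-only and 1 missing region. AT1G10350, SAUR27 and ACR7, a protein with ACT domains that bind amino acids, each had 1 Est-1-only and 2 missing regions. At ACR7 the missing regions, with lowest ranks of 82.5 and 81.1, had Est-1 peaks 30 and 70 bp away. LSU2 was the only gene with 3 missing regions and no Est-1-only one.

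Families were compared with these shares of all genes, 8.08% with an Est-1-only region and 2.63% with a missing region. Over all genes, 2.24% were open in Est-1 alone and 0.612% in the other 3 lists alone. Family counts of such genes below are to be set beside these shares, and nothing is read from them. A family holds the genes whose symbol or synonym carries its keyword, so families are incomplete, and tandem genes can share 1 region. Small auxin-up RNA genes, which are induced by auxin and promote cell expansion, had shares above those of all genes for both kinds, with an interval that takes in the share of all genes for Est-1-only regions: 12 of 80, 15% (8.00 to 24.7), had an Est-1-only region and 10 of 80, 12.5% (6.16 to 21.8), had a missing region. The 10 genes shared 7 missing regions with a median lowest rank of 69.2, against 21.9 over the missing regions of all genes, and 4 of the 7 had an Est-1 peak within 300 bp. The strongest were at AT5G10990 (lowest rank 93.9), AT4G34770 (71.9), the neighbours SAUR26, SAUR27 and AT3G03847 (71.3) and SAUR9 (69.2). At AT5G10990 and SAUR26 an Est-1-only region stood 50 and 30 bp away, with Est-1 ranks of 92.7 and 33.0.

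Factors of the ERF/AP2 family, which act in ethylene, cytokinin and stress responses, had Est-1-only regions at 11 of 60 genes, 18.3% (9.52 to 30.4), and a missing region at 1. All 11 genes were open in all 4 lists, and 7 of the 11 regions had a call of another list within 300 bp. The strongest were at CRF10 (rank 57.5), AT5G51190 (57.0), CBF4, a drought-induced activator (35.6), and CRF7 (34.8). Homeobox genes had Est-1-only regions at 11 of 94, among them KNAT7, a regulator of secondary walls, with 2 regions of ranks 43.9 and 9.71, BLH4 (45.1) and HDG7 (21.9), and a missing region at HB32 alone. PRS, a WUSCHEL relative that shapes lateral organs, and HDG7 were open in Est-1 only. bHLH genes had 4 of 22, with BHLH100, an iron deficiency factor, at rank 43.6 and bHLH121 (32.5), bHLH104 (29.8) and AT1G22490 (4.84) below it.

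Among MYB genes, 9 of 132, 6.82% (3.16 to 12.5), had an Est-1-only region and 8 of 132, 6.06% (2.65 to 11.6), a missing one. Both kinds stood at MYB30, MYB95 and MYB3R2, with the neighbouring call 10 to 30 bp away. MYB68, a root factor, had 2 missing regions with lowest ranks of 22.7 and 1.69. NAC genes had 8 Est-1-only and no missing regions among 104 genes, where the exact interval for a count of 0 reaches 3.48%, and their Est-1-only regions had a median rank of 6.20. WRKY genes had Est-1-only regions at 2 of 72, 2.78% (0.338 to 9.68), and missing regions at 2 of 72. The 33 histone genes had neither kind, with 30 of them open in all 4 lists.

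Among enzymes and transporters, cytochromes P450 had Est-1-only regions at 22 of 239 genes and missing regions at 11 of 239, 4.60% (2.32 to 8.09). Of the 239, 7 were open in Est-1 alone, beside 2.24% of all protein-coding genes. CYP705A21 and CYP705A22 share a region of rank 47.6 that lay 13150 bp from any other list's call. The other 5, CYP705A23, CYP96A14P, CYP77A9, CYP79A2 and CYP81K2, had ranks no higher than 15.8. Open in the other 3 lists and not in Est-1 were HPL1, CYP71A22 and CYP71A23, the last pair sharing 1 weak region with a lowest rank of 2.37. ABC transporters had 16 of 127 with an Est-1-only region, 12.6% (7.38 to 19.7), led by ABCI21 (rank 87.2), ABCG8 (77.0) and ABCC8 (76.2), and 1 with a missing region, at ABCC8. Glutathione transferases had 4 of 49 of each kind. Among xyloglucan hydrolases, which loosen cell walls, 5 of 33 had an Est-1-only region, at ranks no higher than 11.3, and XTH18, XTH25 and TCH4 had missing regions.

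Among receptors and secreted peptides, the strength of members varied. The median Est-1 rank of Est-1-only regions was 13.4 for cysteine-rich receptor-like kinases, 8.33 for plant defensins and 38.7 for CLE peptide genes. Over the Est-1-only regions in the windows of all protein-coding genes it was 10.5. Cysteine-rich receptor-like kinases had 5 of 42 genes with an Est-1-only region, 3 of them open in Est-1 alone, CRK6, CRK7 and CRK8, from 2 weak regions with ranks of 13.4 and 8.05, and none with a missing region. Plant defensins had 4 of 88, with LCR82, LCR30 and LCR11 open in Est-1 alone at ranks of 33.9, 8.05 and 0.982. CLE peptide genes had 4 of 30, with CLE42 (52.6) and CLE12 (43.6) the highest, and missing regions at CLE27 (35.3), CLE16 (31.5) and CLE20 (15.2). The calmodulin and calcium-dependent kinase group had 10 of 91, including SOS2, a kinase of salt tolerance, which was open in Est-1 alone through 2 weak regions of ranks 12.9 and 0.783 that lay 17730 and 18170 bp from any other call. Aux/IAA repressors had 3 of 32 of each kind, and IAA9 had both, with an Est-1 rank of 84.5.

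**Figure D4:**
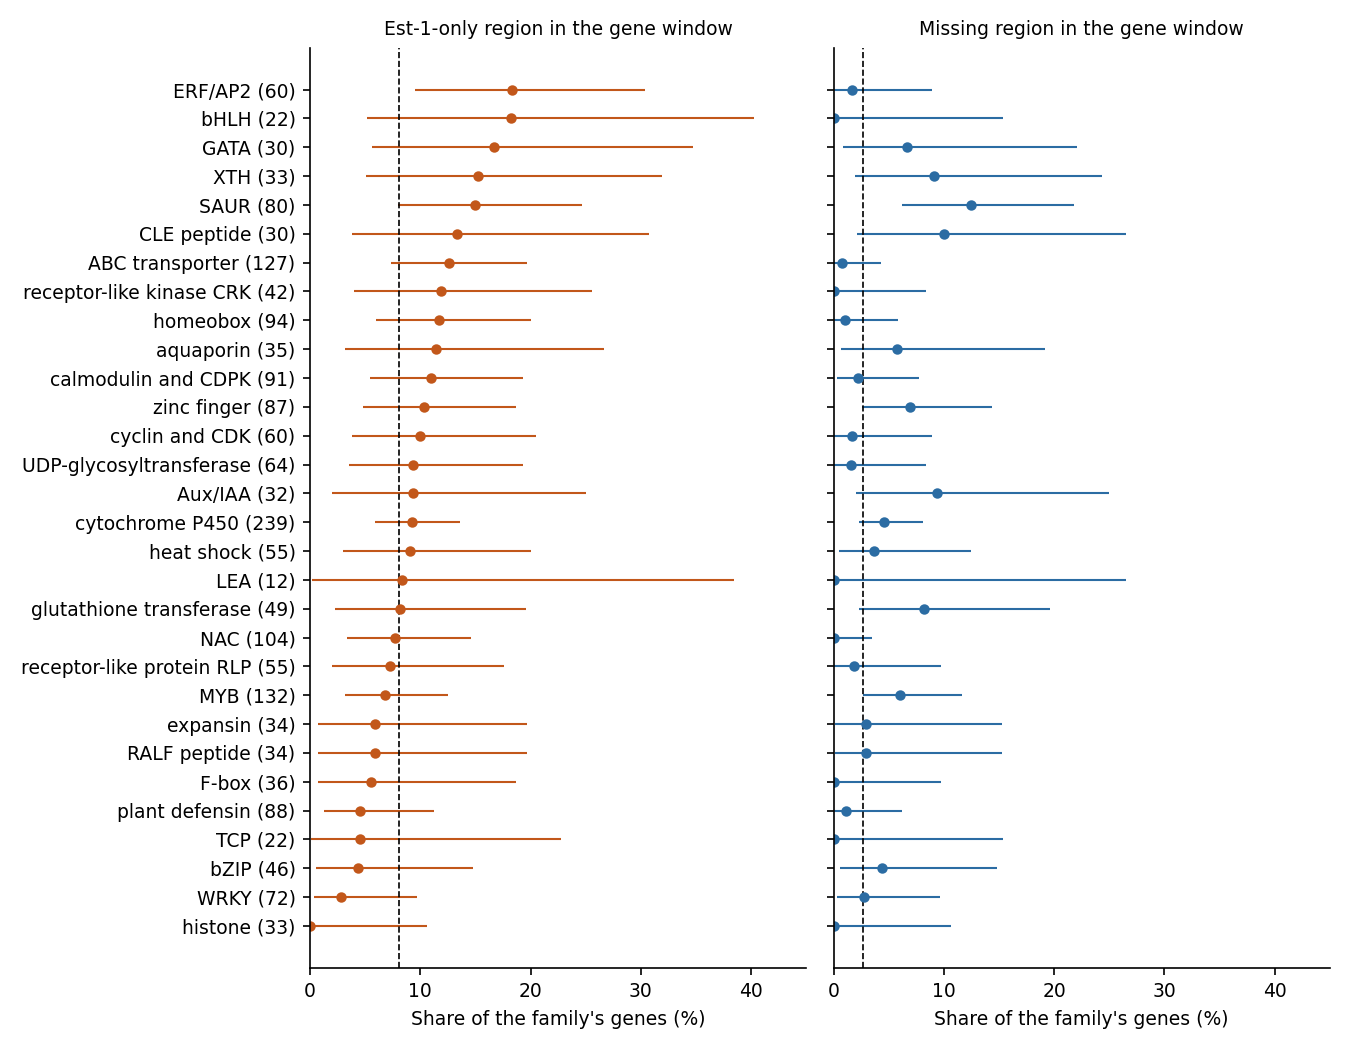
Share of genes in each family, 1 of the 31 not shown, with an Est-1-only region (left) or a missing region (right) in the gene window, with exact 95% intervals; numbers in parentheses count the genes and dashed lines mark the share over all protein-coding genes, 8.08% and 2.63%. The SAUR points lie to the right of both lines, with an interval that reaches the line for Est-1-only regions, and histone genes have neither kind.

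Over all 31 families together, 179 of 1980 genes, 9.04% (7.81 to 10.4), had an Est-1-only and 69, 3.48% (2.72 to 4.39), a missing region. With this many families and 2 kinds, some intervals fall to one side of the overall share by counting error alone, and no family was tested.

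Lists of genes with a known role were read the same way. Over the 355 genes found, 32, 9.01% (6.25 to 12.5), had an Est-1-only region and 13, 3.66% (1.96 to 6.18), a missing region. Genes of light signalling had 6 of 22 with an Est-1-only region, 27.3% (10.7 to 50.2), and none with a missing one. Besides SPA1 (rank 99.8), these were PIL6, also called PIF5, a growth-promoting factor (70.9), PIF4 (34.8), the blue-light receptors PHOT1 (10.8) and CRY1 (2.33) and the ultraviolet-B receptor UVR8 (1.24). PHOT1 was open in no other list, and its single call had an Est-1 signal of 79 and stood 830 bp from the nearest call of another list. The other 5 were open in all 4 lists, with best ranks at PIF4 of 96.2 in Est-1, 97.7 in Bur-0, 95.4 in Bay-0 and 96.2 in Tsu-1.

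Genes of the cold, heat and drought list had 5 of 20 with an Est-1-only region and 2 with a missing one. COR47 and ERD10, neighbouring dehydrin genes, shared 1 Est-1-only region of rank 15.8. CBF4 had a member of each kind in its window, 50 bp apart. The Est-1-only region had an Est-1 signal of 136 and a rank of 35.6. The missing region had signals of 77 in Bur-0, 140 in Bay-0 and 87 in Tsu-1, with a lowest rank of 14.3. HSF4 (37.9) and KIN1 (10.2), a cold-induced gene, had Est-1-only regions, and HSP101, a chaperone needed for heat tolerance, had a missing one (lowest rank 20.1). In the abscisic acid list, PYL4 (96.4) and ABI1, a phosphatase that the receptors inhibit (77.3), had strong Est-1-only regions, both with a call of another list within 300 bp, PYL2 had a weak one (1.56), and ABI5 had a missing region (lowest rank 7.39).

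In the other hormone lists members stood at single genes. Missing regions stood at the auxin genes SHY2 and IAA14, both repressors, and PIN7, an auxin carrier, with lowest ranks of 36.9, 20.9 and 35.7. EIR1, the auxin carrier PIN2, had an Est-1-only region of rank 4.31. EIN3, the central ethylene factor, had an Est-1-only region of rank 50.1 with another list's call 90 bp away, and EIN2, which acts before it, had a missing region with a lowest rank of 16.2 and an Est-1 peak at 270 bp. ACS2, an ethylene synthesis gene, and the cytokinin response regulators ARR4 and ARR15 had Est-1-only regions of ranks 19.4, 14.8 and 3.28. CKX3, a cytokinin-degrading oxidase, was the only list gene open in the other 3 lists and not in Est-1, on weak calls with signals of 67 in Bur-0, 68 in Bay-0 and 78 in Tsu-1. GID1A, a gibberellin receptor (40.7), and CPD, a brassinosteroid synthesis enzyme (8.05), had Est-1-only regions.

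Of the 23 listed genes known to vary between accessions, 3 had a member. An Est-1-only region stood at 2 of them, 8.7% (1.07 to 28), and a missing region at 2, 8.7% (1.07 to 28). These intervals take in the shares of all genes, 8.08% and 2.63%. FRI, the flowering repressor with many natural alleles, had a missing region in its window, at an end of the neighbouring gene KEA2 (chromosome 4, 268081 to 268290), with signals of 133 in Bur-0, 140 in Bay-0 and 86 in Tsu-1, and an Est-1 peak lay 30 bp away. Its best rank was 74.7 in Est-1, 65.7 in Bur-0, 43.9 in Bay-0 and 36.2 in Tsu-1. MOT1, a molybdate transporter, had an Est-1-only region of rank 21.1 beside a missing one 70 bp away, and TZP, a growth regulator, had an Est-1-only region of rank 14.3. CLV3, the peptide that limits the shoot meristem, was open in Est-1 only, through a call with an Est-1 signal of 112 and a rank of 25.6 that stood 730 bp from any other call. SCR, a root patterning factor, had a missing region with signals of 190 in Bur-0, 219 in Bay-0 and 133 in Tsu-1 and an Est-1 peak 90 bp away. CPC (35.2), PDF2 (2.33), SEP4 (0.783), the photosystem genes PSBO2 (61.8) and LHCA2 (0.126), and the immune genes BIK1 (2.78) and ADR1 (1.56) had Est-1-only regions. E2F3 and ACT7 had missing regions with lowest ranks of 9.66 and 7.39. The clock, glucosinolate and seed lists, of 17, 23 and 16 genes, had members of neither kind.

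Both sets were placed less often at gene ends than the regions of all 4 lists. Midpoints lay within 400 bp of a gene end in 52.3% (50.2 to 54.4) of Est-1-only and 49.7% (46.1 to 53.3) of missing regions, against 57.1% (56.4 to 57.7) of the regions in all 4 lists. With all lists at the length of the shortest, gene ends held 48.8% of Est-1-only and 54.8% of missing regions, so the order of the sets turned. Gene interiors held 8.97% (7.81 to 10.3) of Est-1-only and 7.49% (5.72 to 9.60) of missing regions, against 5.85% (5.53 to 6.19), which lies inside the interval of the missing regions. With the full lists, missing regions were the more distal set, with 26.1% (23.1 to 29.4) over 1000 bp from any gene, against 21.1% (19.4 to 22.8) of Est-1-only regions and 20.2% (19.6 to 20.7) of the regions in all 4 lists. The distal shares were not read with lists of equal length. In gene-poor bins, those of 100 kb holding under 15 protein-coding genes, lay 4.90% (4.03 to 5.89) of Est-1-only and 4.60% (3.22 to 6.34) of missing regions, against 2.41% (2.20 to 2.63). Over 3 kb from a gene end lay 3.94% of Est-1-only and 4.60% of missing regions, against 3.56% of the regions in all 4 lists.

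Since members were weaker than shared regions, the same shares were also read within bands of rank. In the Est-1 band from 0 to 25, gene ends held 55.3% (52.8 to 57.8) of Est-1-only regions and 67.5% (65.5 to 69.5) of the regions in all 4 lists. From 25 to 50 they held 44.1% (39.3 to 49.0) and 63.0% (61.6 to 64.4), and from 50 to 75 they held 47.1% (39.0 to 55.3) and 58.7% (57.4 to 59.9). Above 75, with 70 Est-1-only regions, the intervals overlapped. Missing regions, banded by their lowest rank, likewise had smaller gene-end shares in each band under 75, with 54.7%, 47.2% and 41.4% from the lowest band up, against 65.1%, 60.3% and 55.8% of the regions in all 4 lists. For gene-poor bins and gene interiors, the intervals of members and of the regions in all 4 lists overlapped in every band of both sets. In the lowest Est-1 band, gene-poor bins held 5.45% (4.37 to 6.70) of Est-1-only regions and 4.11% (3.29 to 5.06) of the regions in all 4 lists, and gene interiors held 9.92% (8.47 to 11.5) and 7.88% (6.75 to 9.12). Both of these shares of the regions in all 4 lists lay below the interval of the Est-1-only regions. In the lowest band of missing regions, gene-poor bins held 5.88% (3.77 to 8.70). The share of the regions in all 4 lists, 3.43% (2.94 to 3.98), again lay below the interval of the members. In the Est-1 band from 50 to 75 the interior share was lower in Est-1-only regions, at 3.23% (1.06 to 7.37), against 6.41% (5.81 to 7.06).

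Whether a neighbour stood near went with the place of an Est-1-only region. Those with a call of another list within 300 bp were at gene ends in 46.4% (42.7 to 50.2), in flanks up to 1000 bp in 22.7% (19.6 to 26.0) and in gene-poor bins in 2.73% (1.65 to 4.23). Those without were at gene ends in 55.0% (52.5 to 57.6), in flanks in 15.3% (13.5 to 17.3) and in gene-poor bins in 5.91% (4.77 to 7.24). Among missing regions the gene-end share was 48.0% (42.3 to 53.8) with an Est-1 peak near and 50.8% (46.1 to 55.4) without.

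**Figure D5:**
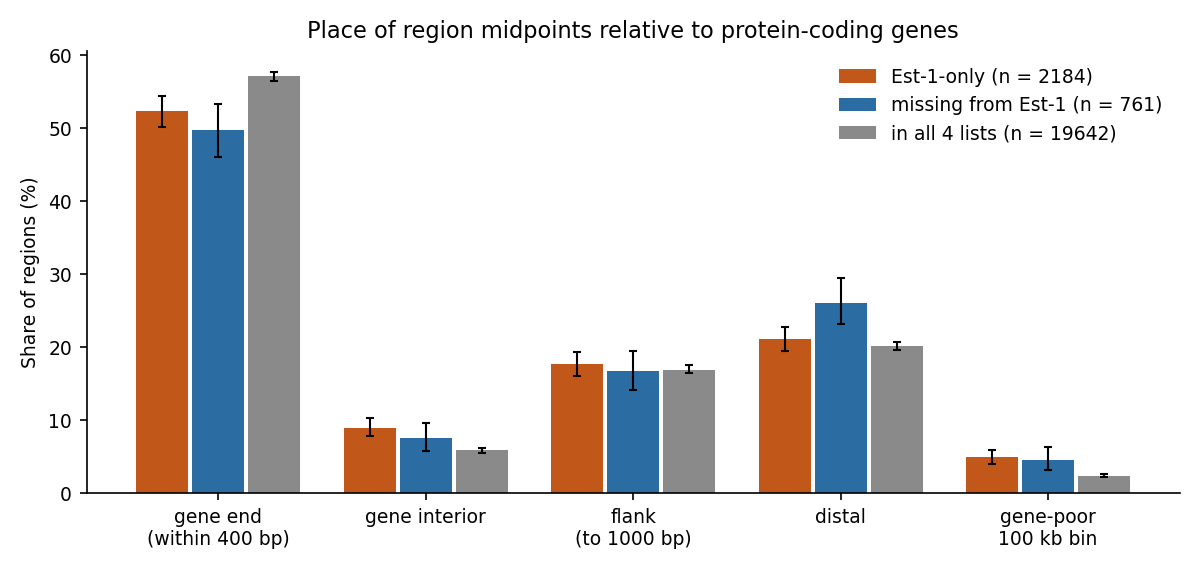
Share in percent of Est-1-only, missing and 4-list regions at gene ends (within 400 bp), in gene interiors, in flanks (to 1000 bp), in distal places and in gene-poor 100 kb bins, with exact 95% intervals; the last class cuts across the others. Gene-end bars stand at 52.3% for Est-1-only, 49.7% for missing and 57.1% for 4-list regions.

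The members were spread over all chromosomes. Est-1-only regions were 7.15% of the regions with an Est-1 peak on chromosome 4 and 7.55% on chromosome 2, with the other 3 chromosomes between, and missing regions were 3.56% of those held by the other 3 lists on chromosome 3 and 3.98% on chromosome 5, with overlapping intervals throughout. Of 1145 bins of 100 kb, 903 held an Est-1-only region and 505 a missing one. The fullest bins had 9 Est-1-only regions, of 51 regions around ABCE1 on chromosome 3 and of 72 around CRK3 on chromosome 2, and 5 missing regions, in 4 bins of which the LSU2 locus was one.

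Few members overlapped genes that make no protein. Pseudogenes were overlapped by 17 Est-1-only regions, 0.778% (0.454 to 1.24), and by 5 missing regions, 0.657% (0.214 to 1.53), against 0.265% (0.198 to 0.347) of the regions in all 4 lists. Of the 17, 16 had no call of another list within 300 bp, and the strongest was at AT5G39473 with an Est-1 rank of 58.9. Long noncoding RNA genes were overlapped by 3.48% (2.75 to 4.34) of Est-1-only and 2.76% (1.72 to 4.19) of missing regions, against 3.47% (3.22 to 3.74) of the regions in all 4 lists. Transfer RNA genes were overlapped by 6 Est-1-only regions, 0.275% (0.101 to 0.597), and 4 missing regions, 0.526% (0.143 to 1.34), against 0.326% (0.251 to 0.416) of the regions in all 4 lists. Small nuclear RNA genes, U2.4, U2.6, U2.9 and U6-29 of the spliceosome, were overlapped by 4 Est-1-only regions, 0.183% (0.0499 to 0.468). No missing region overlapped one (0 to 0.484), and 0.056% (0.028 to 0.1) of the regions in all 4 lists did, so the intervals overlapped.

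With each of the other accessions in the place of Est-1, the number of missing regions and the near shares came closest to those of Est-1 for Bay-0. The number of regions called in 1 accession alone was lower for each of the others, Bay-0 included. Regions called in 1 accession alone numbered 2184 for Est-1, 1434 for Bur-0, 1523 for Bay-0 and 1192 for Tsu-1, and regions missing from 1 accession numbered 761 for Est-1, 2970 for Bur-0, 713 for Bay-0 and 1166 for Tsu-1. Est-1 and Bay-0 had the most peaks and the fewest missing regions. The share of single-accession regions with a call of another list within 300 bp was 31.9% (29.9 to 33.9) for Est-1, 54.7% (52.1 to 57.3) for Bur-0, 34.7% (32.3 to 37.2) for Bay-0 and 45.9% (43.0 to 48.8) for Tsu-1. The intervals of Est-1 and Bay-0 overlapped, and those of Bur-0 and Tsu-1 lay higher. The share of missing regions with an own peak that near was 39.9% (36.4 to 43.5) for Est-1, 22.7% (21.2 to 24.3) for Bur-0, 41.8% (38.1 to 45.5) for Bay-0 and 30.5% (27.9 to 33.3) for Tsu-1. The single-accession share was the lower one for Est-1 and Bay-0, and the higher one for Bur-0 and Tsu-1. It counts calls of any other list, and the missing share counts those of 1 list alone, so nothing is read from this order. The gene-end share of single-accession regions was 52.3% for Est-1, 42.8% for Bur-0, 54.2% for Bay-0 and 45.1% for Tsu-1, and that of missing regions was 49.7% for Est-1, 57.8% for Bur-0, 44.2% for Bay-0 and 63.5% for Tsu-1, so that its order between the sets also turned for Bur-0 and Tsu-1. Single-accession regions had a median rank of 10.8 for Est-1, 26.1 for Bur-0, 10.8 for Bay-0 and 15.2 for Tsu-1.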

How the data were processed

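DNase I-seq peaks of 1 library per accession were used as deposited. Per the submitters' processing notes, Bowtie 0.12.7 and the TAIR10 build were used. How peaks were called, at what threshold, whether list length was limited and how deeply each library was sequenced is not given in the labels, notes or files. The authors' lists give each peak a signal value, with no scaling stated, and a −log10 p-value with a ceiling of 324, which was used only to break ties.

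Overlapping or touching peaks were merged, signal was turned into a percentile rank within each nuclear list, and gaps were measured between peak edges. Gene places came from the RefSeq gene table (TAIR10.1, without strand), so both gene ends were used, with 27432 protein-coding genes. Families came from keywords in symbols and synonyms, and 355 of 367 listed symbols were found. Several keyword patterns were corrected after counts had been seen. The members, families and gene lists were chosen with earlier results of these data known, and the bands of rank, stretches, pairs and mapped loci were added after values had been seen.

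Named regions were the 15 strongest of each set with no near peak and the 6 strongest with one, by Est-1 signal or by the lowest rank in the other lists. Family and list genes were named by the rank of their members, and further genes and loci were chosen after their values were seen. The counts of 1 family are not reported here. No sequence was analysed here. Scripts were tested on simulated data. Python 3.11.15, pandas 2.3.3, numpy 2.4.6, scipy 1.17.1 and matplotlib 3.10.9 were used. Alternatives were list length, the stronger 50% of peaks, merging distance, overlap, gene window, distance limits and leaving out each other accession.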

Additional observations from a re-analysis of the deposited data

Results flagged for a closer look

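The lists also held peaks outside the nuclear chromosomes, which the comparisons did not use. On the mitochondrial genome Est-1 had 53 peaks, against 44 in Bur-0, 44 in Bay-0 and 4 in Tsu-1. No control library was available for comparison, and the cause was not tested.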

How the results depend on the processing

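With all lists shortened to equal length, the 25298 peaks of highest signal, Est-1-only regions numbered 1254 and missing regions 998. For Est-1-only regions the share with a near peak was 44.8% and the gene-end share 48.8%, while for missing regions the near share was 27.1% and the gene-end share 54.8%. Genes open only in Est-1 then numbered 323 and genes open in the other 3 lists alone 391. The order of the 2 sets thus turned for gene-end shares and gene counts. The near shares of the 2 sets count calls of unlike numbers of lists, so their order is not read. In the stronger 50% of each list there were 1228 Est-1-only and 427 missing regions, the near share of missing regions was 30.4%, and the gene-poor shares were 3.34% of Est-1-only and 1.87% of missing regions. An overlap of 50% of both peaks was counted by peak and not by merged region. With it, 3194 Est-1 peaks had no match in another list. On the missing side, 1223 Bay-0 peaks had a match in Bur-0 and Tsu-1 but none in Est-1. Merging peaks up to 150 bp apart gave near shares of 15.3% for Est-1-only and 18.4% for missing regions. A limit of 150 bp gave 19.0% and 23.8%, and one of 1000 bp gave 62.5% and 76.1%. Gene ends of 200 bp held 39.1% and 40.1%, and bins with fewer than 10 genes held 2.61% and 2.63%.

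Leaving out each other accession in turn gave 2792 to 3729 Est-1-only regions, the most without Bay-0, and 1235 to 1484 missing regions. The near shares ranged over 28.1% to 34.1% for Est-1-only and 36.8% to 44.1% for missing regions, the gene-end shares over 50.5% to 56.8% and 48.3% to 49.3%, and the gene-poor shares over 3.73% to 4.92% and 4.45% to 5.19%. Genes open only in Est-1 numbered 759 to 1359, the most without Bay-0, and genes open in the other lists alone 235 to 336. Each setting was read for several results. Of 42 values under the other settings, 19 stayed within the counting interval or within 1.5 times the count. Of 30 values with an accession left out, 18 did. The causes were not tested. No paired analysis was possible because each accession had 1 library. Depth is unknown, so weak calls cannot be told apart from peaks just under another list's threshold.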
